A study of Sus scrofa with 8 samples.

Results

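The smooth muscle contractile genes are 9 genes that mark the muscle of pulmonary vessels and airways: ACTA2, MYH11 and MYL9 of the contractile filaments, TPM1, TPM2, CALD1, CNN1 and TAGLN, which bind actin, and DES of the intermediate filaments. A member was any probe of the array whose gene symbol, taken from the RefSeq accession of its target in the array design or from the study's supplementary tables, was 1 of the 9, and which was well above background on at least 1 array. This found 17 probes of 7 genes, among 3828 genes with a symbol, and all 17 probes were well above background on all 8 arrays. ACTA2 and MYL9 had no probe matched to their name and are not analysed here. No probe with a member's name was lost to the filter on background.

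Smooth muscle contracts when calcium, bound to calmodulin, activates the kinase that phosphorylates the regulatory light chain (MYL9), which lets smooth muscle myosin (MYH11) pull on filaments of smooth muscle actin (ACTA2). Tropomyosins (TPM1 and TPM2) lie along the actin filament, caldesmon (CALD1) and calponin (CNN1) bind it and restrain the myosin ATPase, transgelin (TAGLN) cross-links it, and desmin (DES) ties the contractile units to each other and to the cell surface. In the lung this muscle wraps arteries, veins and airways, and hypoxia is known to constrict and thicken the small pulmonary arteries. DES, TPM1 and TPM2 also belong to striated muscle, and CALD1, TAGLN and the tropomyosins have forms in non-muscle cells.

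Lung RNA came from 6-month-old female pigs of 4 groups, 2 pigs per group and 1 pig per array, on Agilent 1-color arrays. TH were Tibetan pigs raised at 3500 m, TL were Tibetan pigs moved at 1 month of age to 40 m, DH were Duroc pigs moved at the same age to 3500 m, and DL were Duroc pigs that stayed at 40 m. Breed and rearing altitude thus came with a move in TL and DH and without one in TH and DL. The move and the breed by altitude interaction therefore cannot be told apart. All values below are deposited log2 expression values unless another scale is named, and in a piece of lung fewer muscle cells and less RNA per cell cannot be told apart. The surfactant gene SFTPC, which marks alveolar type II cells, had group means between 18.57 and 18.97. Its TH minus DH was -0.40, and it is not taken as a steady reference.

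Several properties of the 8 arrays touch every value. The TL arrays stood apart, with a median raw spot signal of 324 and 333.5 against 207.5 to 230 elsewhere, and Pearson's r across probes of 0.918 to 0.941 with the arrays of other groups. The other groups had 0.961 to 0.967 with each other, and the arrays of a group 0.981 to 0.994. TH and DL shared 1 slide and TL and DH the other, so that slide, the move and the breed by altitude interaction cannot be told apart. The groups of a slide differ in both breed and altitude, so that a difference within a slide does not separate these either. Spots of a probe differed by a median of 0.05 both on 1 array and between the arrays of a group, so that the spread behind each test is no larger than that of repeated spots. Values from a second scaling are therefore given beside the main results. The deposited values share 1 distribution over arrays with a median of 7.40, and the alternative sets the processed signal against the 75th percentile of its array. The median TH minus TL difference over all 34406 tested probes was 0.11 with the first and 0.23 with the second, and bright probes moved further.

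How a probe got its name decides what can be tested. For 10 probes of 4 genes (5 of TPM1, 3 of DES and 1 each of TPM2 and CNN1) the array design names a RefSeq transcript. The other 7 probes (4 of CALD1 and 1 each of TAGLN, MYH11 and TPM2) were named only by supplementary tables that were used in part and that rank or list transcripts by the breed effect and the interaction of the same arrays. These 7 were therefore bound to differ between groups, and their values are described with no test.

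A two-way limma model of breed (Tibetan minus Duroc), altitude (high minus low) and their interaction (TH minus TL less DH minus DL) was fitted to all 34406 probes, with Benjamini-Hochberg adjustment and an FDR threshold of 0.0001. The 10 RefSeq-named probes cover 4 genes, and 5 of them are of TPM1. Counts this small cannot be set apart from the shares given beside them. The breed effect passed for 1 of the 10 RefSeq-named probes, a DES probe lower in Tibetan pigs, against 27.4% of all tested probes and 28.5% of probes with a RefSeq accession. The altitude effect passed for 2 of 10, both of TPM1 and both higher at high altitude, against 26.3% and 35.3%. The interaction passed for 2 of 10, both of TPM1 and both positive, against 28.4% and 27.7%. The median effect of the 10 probes was -0.07 for breed, 0.07 for altitude and 0.25 for the interaction. Medians over all tested probes were -0.07, 0.01 and 0.21, and over probes with a RefSeq accession -0.12, 0.16 and 0.37. In the directions concerned the background was 14.6% for lower by breed, 14.0% for higher by altitude and 14.9% for a positive interaction. At an FDR of 0.05, where 71.6%, 70.8% and 73.7% of all probes passed, 4, 9 and 8 of the 10 did. With scaling to the 75th percentile 3, 4 and 3 of the 10 passed, against 33.2%, 30.4% and 32.4% of all probes. The genes that passed were then CNN1 and DES for breed and DES and TPM1 for altitude and the interaction.

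**Figure D1:**
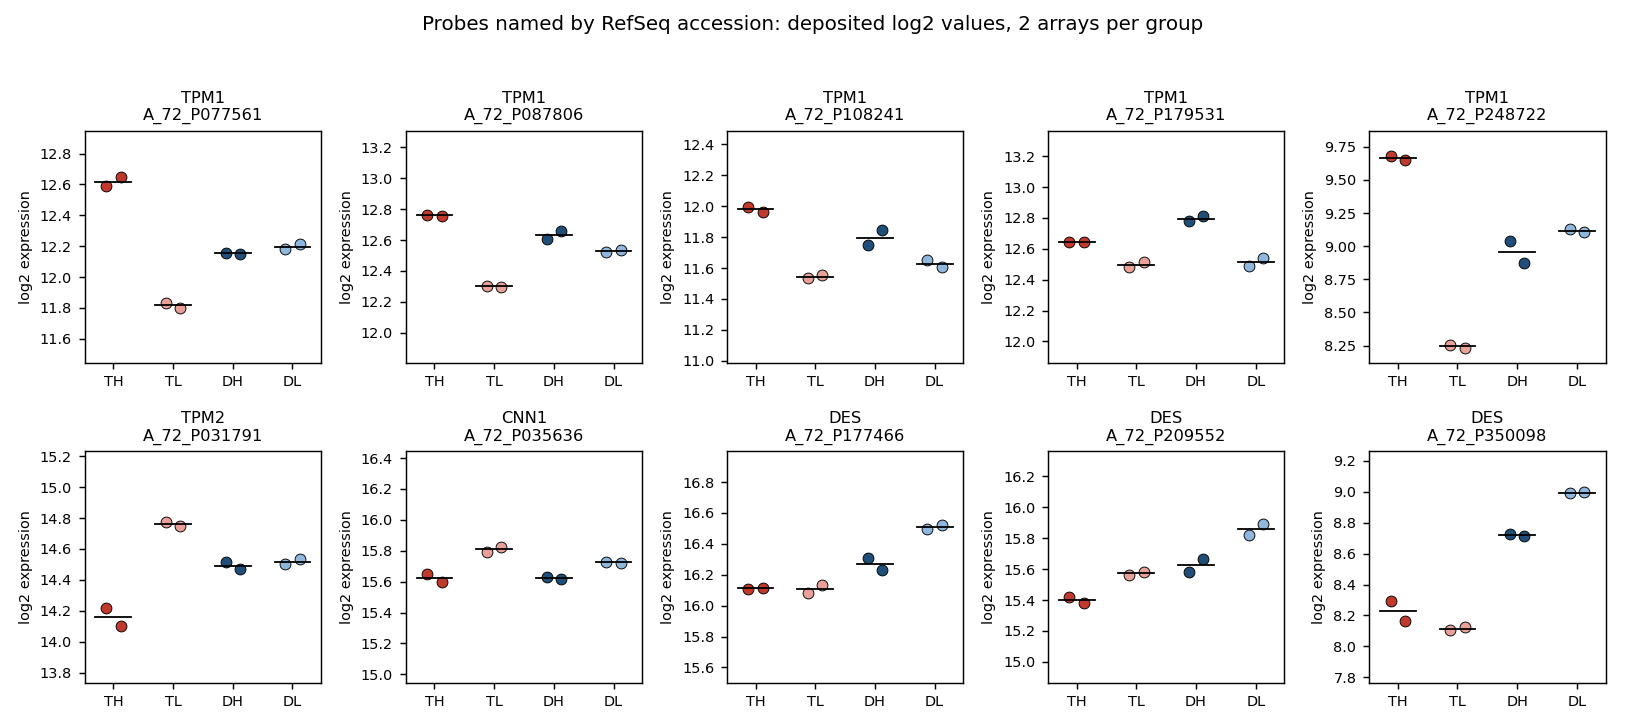
Deposited log2 expression (y axis) of the 10 member probes named by a RefSeq accession in TH, TL, DH and DL (x axis). Points are single arrays, lines are means of 2 arrays, and each panel has its own scale. The TL mean was the lowest of the 4 in each of the 5 TPM1 probes, and all 3 DES probes were highest in DL.

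TPM1, the tropomyosin of both smooth and striated muscle filaments, gave the clearest pattern of the tested members. Probe A_72_P077561 read 12.59 and 12.65 in TH, 11.83 and 11.80 in TL, 12.16 and 12.15 in DH, and 12.18 and 12.21 in DL. Both TH arrays lay above and both TL arrays below every Duroc array, and the Duroc groups lay side by side. TH exceeded TL by 0.80 (1.74-fold, standard error 0.03, limma adjusted p = 1.01e-05). DH and DL differed by -0.04, with a 95% interval of -0.12 to 0.04 (limma adjusted p = 0.305). The altitude effect was 0.38 (limma adjusted p = 5.9e-05) and the interaction 0.84 (limma adjusted p = 3.86e-05). Within the slides, TH minus DL was 0.42 and TL minus DH was -0.34.

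The dimmest TPM1 probe, A_72_P248722, showed the widest spread among groups. It read 9.68 and 9.65 in TH, 8.25 and 8.23 in TL, 9.04 and 8.87 in DH, and 9.13 and 9.105 in DL. The order was TH, DL, DH and TL, in which the neighbours DL and DH did not differ past the threshold (DH minus DL -0.16, limma adjusted p = 0.0678). TH exceeded TL by 1.42 (2.68-fold, limma adjusted p = 1.34e-05) and DH by 0.71 (limma adjusted p = 4.26e-04, not past the threshold). Its interaction of 1.58 passed (limma adjusted p = 4.21e-05), while its altitude effect of 0.63 lay just outside the threshold (limma adjusted p = 1.03e-04).

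The other 3 TPM1 probes moved less. A_72_P087806 read 12.76 on both TH arrays, 12.31 and 12.30 in TL, 12.61 and 12.66 in DH, and 12.52 and 12.54 in DL, and its altitude effect of 0.28, or 0.47 with 75th percentile scaling, lay just inside the threshold (limma adjusted p = 9.96e-05). A_72_P108241 had an altitude effect of 0.30 (limma adjusted p = 4.88e-04). The brightest TPM1 probe, A_72_P179531, differed from the rest: it read 12.78 and 12.81 in DH, above 12.64 on both TH arrays, 12.48 and 12.51 in TL and 12.49 and 12.54 in DL. Its interaction was -0.14 (limma adjusted p = 0.0373). All 5 probes target the same RefSeq transcript, are not independent, and yet had interactions from -0.14 to 1.58. TH was above TL in all 5, by 0.14 to 1.42 with the deposited values and by 0.55 to 1.12 with 75th percentile scaling, which turned the interaction of A_72_P179531 to 0.27. Without 1 array in turn, the altitude effect of A_72_P077561 stayed between 0.365 and 0.393 and that of A_72_P087806 between 0.269 and 0.294. The interaction of A_72_P077561 stayed between 0.813 and 0.869 and that of A_72_P248722 between 1.499 and 1.67. These fits leave a group with 1 array, and calls were lost in them over all tested probes as well as for these probes.

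TPM2, the beta tropomyosin of smooth and striated muscle, had 1 probe with a RefSeq name. A_72_P031791 read 14.22 and 14.10 in TH, 14.78 and 14.75 in TL, 14.52 and 14.47 in DH, and 14.50 and 14.54 in DL. TL was thus highest and TH lowest, opposite to TPM1, and the Duroc groups overlapped. TH minus TL was -0.61 (standard error 0.05, limma adjusted p = 1.43e-04) and the interaction -0.58 (limma adjusted p = 8e-04), neither past the threshold of 0.0001. With 75th percentile scaling TH minus TL turned to 0.10 and the interaction to 0.06, so that the direction rests on the scaling. TH minus DH was -0.33 with the first and -0.35 with the second (limma adjusted p = 0.00277 and 0.00183). The other TPM2 probe, A_72_P344093, named only by the tables, read 11.08 and 11.05 in TL, 10.15 and 10.14 in TH, 9.75 and 9.78 in DH, and 9.44 and 9.40 in DL. It placed both Tibetan groups above both Duroc groups, which the RefSeq-named probe did not.

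CNN1, the calponin of differentiated smooth muscle, hardly varied. Its probe A_72_P035636 read 15.65 and 15.59 in TH, 15.79 and 15.82 in TL, 15.63 and 15.62 in DH, and 15.73 and 15.72 in DL. Both low altitude groups lay above both high altitude groups by a small margin. The altitude effect was -0.14 (standard error 0.02, limma adjusted p = 0.00199) and the breed effect 0.04 (limma adjusted p = 0.129). TH minus DH was -0.00, with a 95% interval of -0.08 to 0.07. Before any scaling its processed signal was 48851 to 54753 on the 8 arrays, the lowest value being on a TL array. The small altitude difference turned with 75th percentile scaling to 0.30 (limma adjusted p = 1.03e-04), TH minus TL from -0.19 to 0.57, and the breed effect to -0.31 (limma adjusted p = 8.77e-05). TH minus DH stayed small, at -0.03.

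DES, the muscle intermediate filament protein, had a negative breed effect in all 3 of its probes, 1 of which passed. A_72_P177466, the brightest, read 16.11 and 16.12 in TH, 16.08 and 16.13 in TL, 16.31 and 16.23 in DH, and 16.50 and 16.52 in DL. A_72_P209552 read 15.42 and 15.38 in TH, 15.56 and 15.58 in TL, 15.58 and 15.67 in DH, and 15.82 and 15.89 in DL. In both, DL was the highest group, and the Duroc arrays did not overlap with the Tibetan arrays in the first, while TL and DH met at 15.58 in the second. The breed effects of -0.28 (limma adjusted p = 3.52e-04) and -0.26 (limma adjusted p = 9.52e-04) did not pass. Within the slides, TH minus DL and TL minus DH were -0.40 and -0.16 for the first probe and -0.46 and -0.05 for the second.

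The dim DES probe A_72_P350098 read 8.29 and 8.16 in TH, 8.10 and 8.13 in TL, 8.72 on both DH arrays, and 8.99 and 8.998 in DL. Every Duroc array lay above every Tibetan array. The breed effect of -0.69 (1.61-fold, standard error 0.03, limma adjusted p = 3.06e-05) was the 1 breed call among the members. Within the slides, where breed and altitude change together, TH minus DL was -0.77 and TL minus DH -0.61. Without 1 array in turn the breed effect stayed between -0.72 and -0.65. Such fits leave a group with 1 array, and calls were lost in them over all tested probes as well as for this probe. With 75th percentile scaling the breed effects of the 3 probes were -0.64, -0.61 and -0.46 in the order given. The first 2 then passed (limma adjusted p = 1.09e-05 and 3.37e-05) and the third did not (limma adjusted p = 2.5e-04). Which DES probes passed thus depended on the scaling, while the sign was negative in all 3 under both. DH minus DL was -0.24, -0.23 and -0.27 in the 3 probes, and -0.02, -0.08 and -0.18 with the other scaling.

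**Figure D2:**
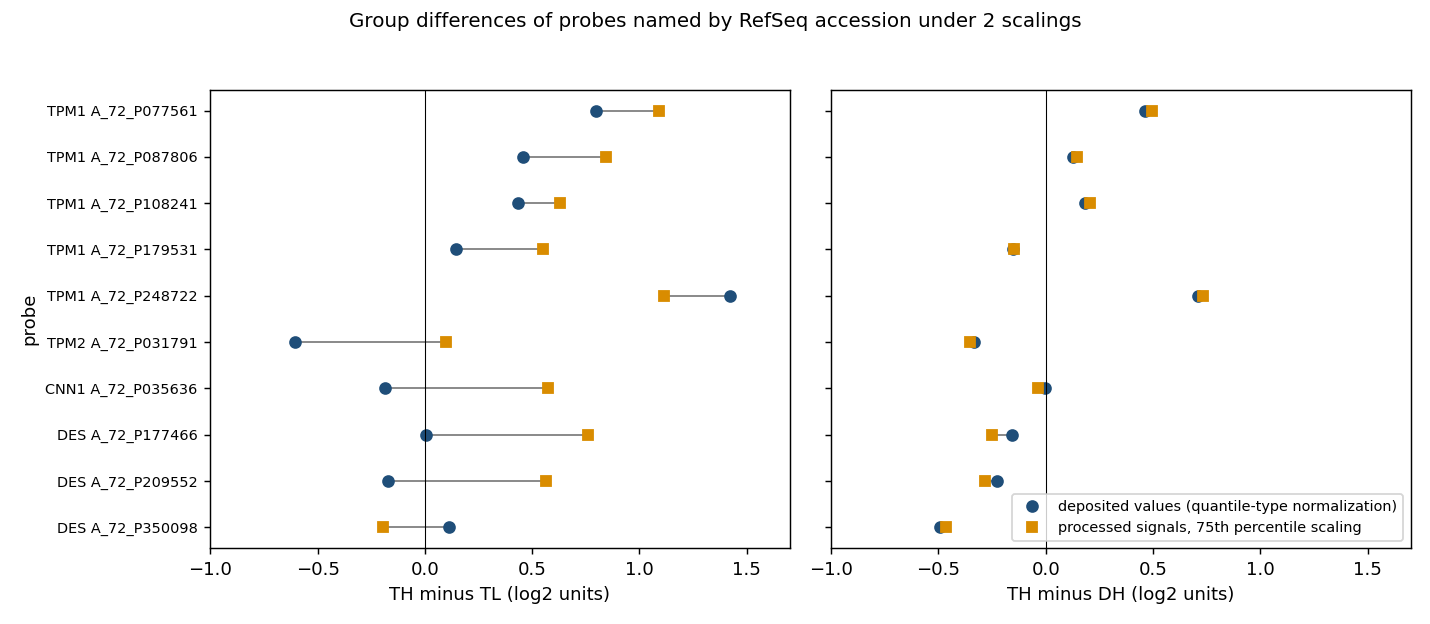
TH minus TL (left) and TH minus DH (right) of the 10 RefSeq-named member probes in log2 units (x axis), with the deposited values (circles) and with processed signals scaled to the 75th percentile of each array (squares). The scalings differed by up to 0.76 in TH minus TL, where 4 of 10 probes changed sign, and by at most 0.09 in TH minus DH, where none did.

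Caldesmon and the remaining members come from the probes named by the result tables, so the following values were chosen for their differences. CALD1, which restrains actomyosin in smooth muscle and has a non-muscle form, had 4 probes. A_72_P423229 read 10.09 and 10.17 in TH, 13.38 and 13.44 in TL, 10.34 and 10.41 in DH, and 9.89 and 9.88 in DL. A_72_P209157 and A_72_P296229 were also highest in TL, while the lowest group was DL in A_72_P423229 and A_72_P209157 and TH in A_72_P296229, and TH minus TL in the 3 probes was between -4.19 and -3.16, which is 8.93-fold to 18.3-fold higher in TL. The fourth probe, A_72_P426119, ran the other way, with 10.51 and 10.46 in TL against 11.38 and 11.36 in TH, 11.17 on both DH arrays, and 11.62 on both DL arrays. The 3 probes that were high in TL target assembled transcript clusters in the array design, whereas the fourth targets an annotated Ensembl transcript. The probes therefore gave no single direction for CALD1, and these differences kept their sign with 75th percentile scaling.

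TAGLN, an early marker of smooth muscle differentiation, was higher at high altitude in its probe A_72_P079791. It read 12.59 and 12.60 in TH, 11.60 on both TL arrays, 12.55 and 12.56 in DH, and 12.10 and 12.11 in DL. The high altitude groups of both breeds lay within 0.04 of each other, DL was below them and TL lowest. TH minus TL was 1.00 (2.00-fold) and DH minus DL 0.45 (1.37-fold), and these were 1.25 and 0.45 with 75th percentile scaling.

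MYH11, the heavy chain of smooth muscle myosin and the most specific marker in the list, stood out in DL alone with the deposited values. Its probe A_72_P125746 read 16.19 and 16.20 in DL, 15.74 and 15.75 in TL, 15.62 and 15.64 in DH, and 15.61 and 15.62 in TH. The DL group exceeded DH by 0.56 and TH by 0.58. With 75th percentile scaling DL stayed highest, 0.41 above DH, while TL lay below TH, the TH minus TL difference turning from -0.13 to 0.63. Processed signals before scaling were 74137 and 75077 on the DL arrays and 47139 to 54021 on the other 6.

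**Figure D3:**
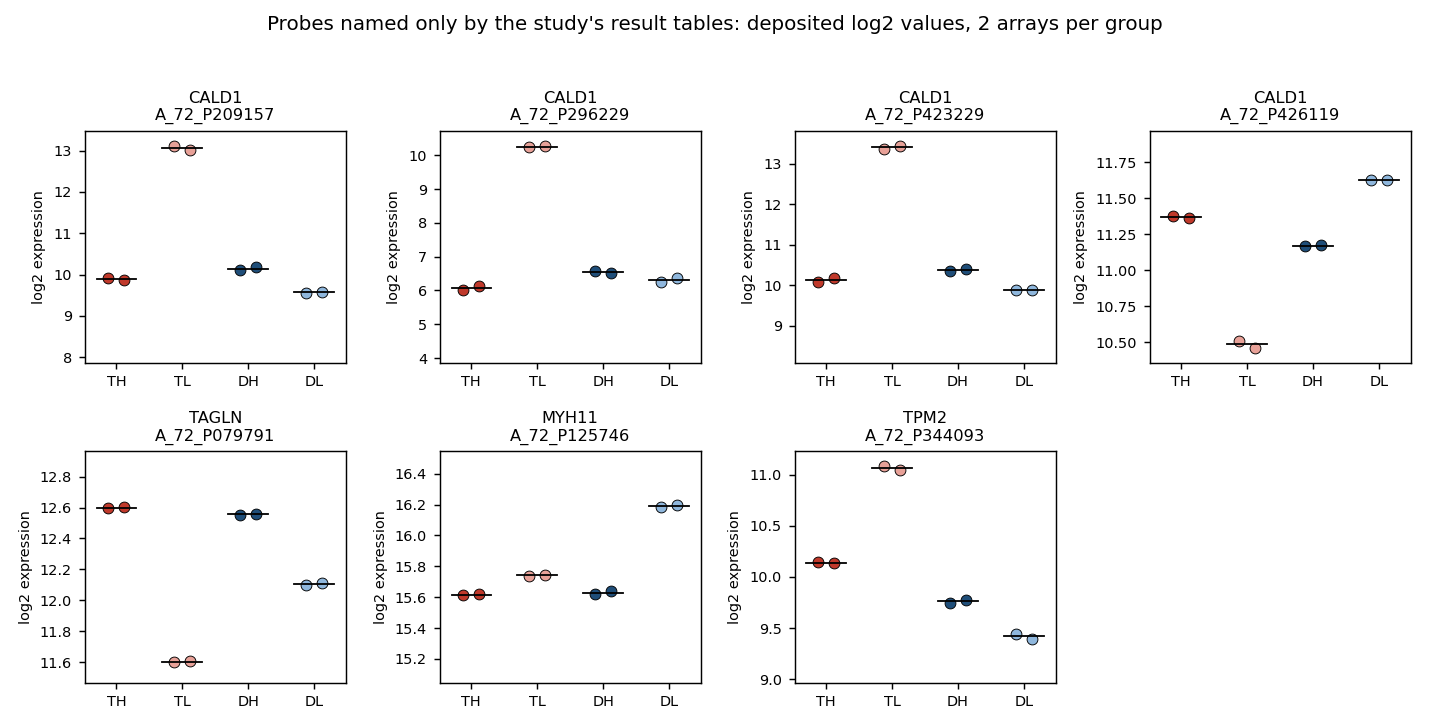
Deposited log2 expression (y axis) of the 7 member probes named only by the study's result tables in TH, TL, DH and DL (x axis); points are single arrays and lines means of 2 arrays. TL was far above the other groups in 3 CALD1 probes and below them in the fourth and in TAGLN, and DL was highest in MYH11.

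The altitude comparisons within each breed share no arrays and can be set side by side. Each also compares moved with unmoved pigs and arrays of different slides. In Tibetan pigs (TH minus TL) the RefSeq-named probes ranged from -0.61 for TPM2 to 1.42 for TPM1, and in Duroc pigs (DH minus DL) from -0.27 for DES to 0.28 for TPM1. Only TPM1 A_72_P077561 and A_72_P248722 had a difference between the breeds that passed as an interaction. At 3500 m, the breed difference TH minus DH of the 10 probes ran from -0.49 for DES A_72_P350098 (limma adjusted p = 6.53e-04) to 0.71 for TPM1 A_72_P248722. In limma 0 of 10 passed at an FDR of 0.0001, against 9.33% of all probes, with 9 of 10 at an unadjusted p under 0.05. At an FDR of 0.05, 9 of 10 passed, against 58.9% of all probes. Without both TL arrays 0 of 10 passed for TH minus DH or DH minus DL in limma, against 0.663% and 0.0% of all probes, with 9 and 7 of the 10 at an unadjusted p under 0.05. The shares of all probes at that unadjusted p are not given here, so these counts have no background.

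**Figure D4:**
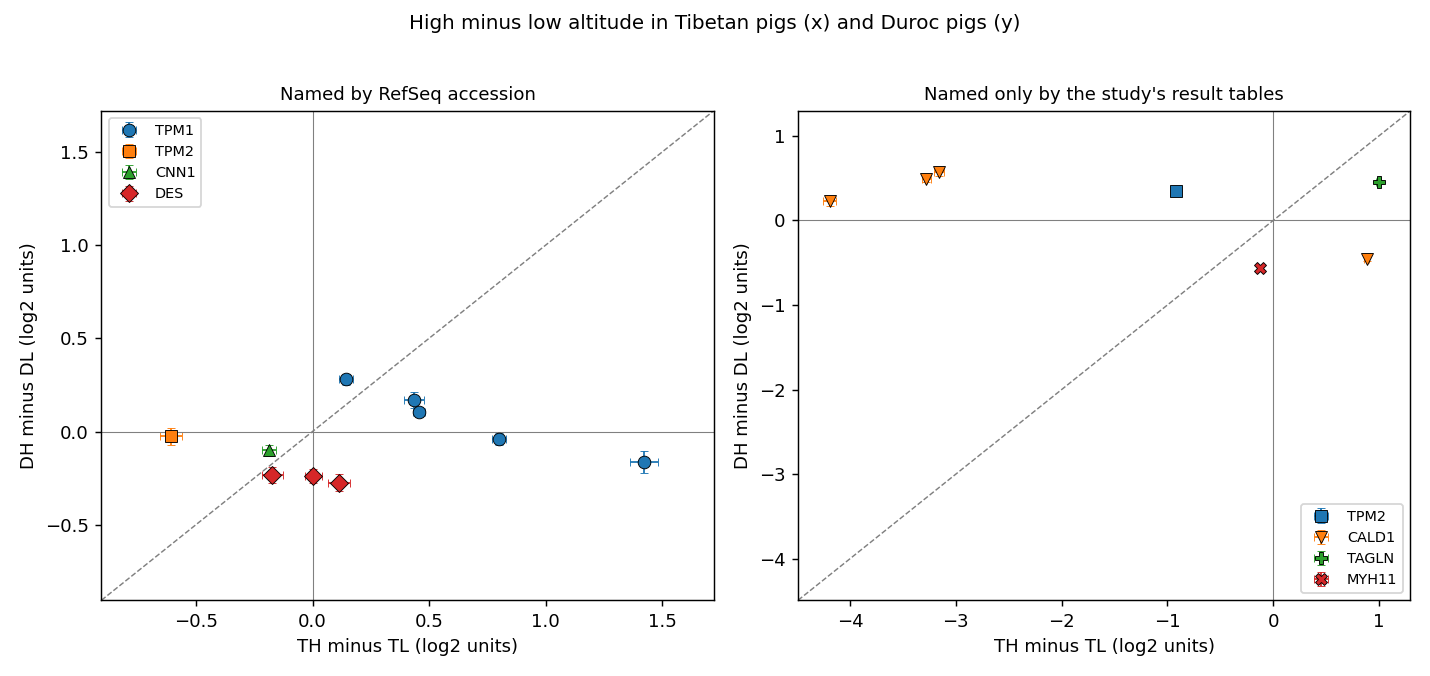
High minus low altitude in Tibetan pigs (TH minus TL, x axis) against Duroc pigs (DH minus DL, y axis), in log2 units of the deposited values, for RefSeq-named (left) and table-named (right) member probes; bars are standard errors from limma and the dashed line marks equal differences. TPM1 reaches 1.42 on the x axis but stays between -0.16 and 0.28 on the y axis, and 3 CALD1 probes lie between -4.19 and -3.16 on the x axis.

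Whether the members shared a profile over the groups depended on the scaling. Over the 8 arrays, which fall into 4 groups of near-identical pairs and share their normalization, Pearson's r between the brightest probes with the deposited values ranged from -0.98 for CNN1 with TAGLN to 0.85 for DES with MYH11. With 75th percentile scaling all pairs were positive, from 0.51 for TAGLN with TPM2 to 0.97 for CNN1 with DES, and CNN1 with TAGLN had 0.92. TPM1 had r of 0.80 with TAGLN in the first and 0.97 in the second. These are descriptions over 8 arrays with no test. The mean of the members' standardized profiles includes the table-named probes of CALD1 (A_72_P426119), TAGLN and MYH11. These were bound to differ between groups, so that genes matching this mean draw in part on that choice. With the deposited values, the mean had its closest matches, among 2170 RefSeq-named probes, in CALCRL (r = 0.989), AGPAT1 (0.985), TLR3 (0.983), MET (0.983) and RXRG (0.982). With the other scaling these 5 had r between 0.341 and 0.620. CALCRL, the receptor subunit for calcitonin gene-related peptide and adrenomedullin, read 11.34 ± 0.02 (SD, n = 2) in DL, 10.92 ± 0.02 in DH, 10.23 ± 0.15 in TH and 10.18 ± 0.01 in TL. The 5 genes shared this order of breeds, with DL highest and both Tibetan groups lowest.

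Other parts of the contractile machinery were read from RefSeq-named probes of a list of 35 genes, of which 10 genes had 16 probes. The breed effect passed for 1 higher and 1 lower probe, the altitude effect for 3 lower, and the interaction for 3 positive and 1 negative. Over all probes with a RefSeq accession 28.5%, 35.3% and 27.7% passed in the same order. The medians of the list were -0.04, -0.31 and -0.24, beside -0.07, 0.01 and 0.21 over all probes. Over probes with a RefSeq accession they were -0.12, 0.16 and 0.37. With 75th percentile scaling the list medians were -0.37, 0.01 and 0.26, so that those for altitude and the interaction changed sign. Medians over probes with a RefSeq accession were then -0.23, 0.33 and 0.58. The light chain MYL6 was the brightest, between 18.66 and 18.97 in the 4 groups, with TH minus TL at 0.09, or 0.73 with 75th percentile scaling. In CAV1 of the caveolae this difference was -0.56 and turned to 0.12, and in the myosin phosphatase inhibitor PPP1R14A it was 0.11 and 0.86. RGS2, which damps vasoconstrictor signaling through Gq, was highest in TL at 15.74 ± 0.03 (SD, n = 2), with 14.86 ± 0.00 in DL, 14.58 ± 0.01 in TH and 14.49 ± 0.04 in DH. Here a breed effect of 0.48 (limma adjusted p = 2.01e-05), altitude effect of -0.76 (6.29e-06) and interaction of -0.80 (3.81e-05) passed, and were 0.13, -0.37 and -0.13 with 75th percentile scaling. PRKG1, the kinase through which nitric oxide relaxes smooth muscle, was highest in DL, with an altitude effect of -1.25 and an interaction of 1.74, which became -1.42 and 1.43. The altitude call of VCL, the vinculin of muscle attachment plaques, shrank from -0.63 to -0.19.

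MYLK, the kinase that phosphorylates the light chain, had probes that disagreed. A_72_P384328 had an interaction of 1.13 (limma adjusted p = 4.01e-05) with DL highest at 11.12 and TL lowest at 10.14, while the 2 brighter probes A_72_P208932 and A_72_P364288 had interactions of -0.07 and -0.46, which turned to 0.55 and 0.18 with 75th percentile scaling. The last call among the list was a positive interaction of a PPP1CB probe, the myosin phosphatase catalytic subunit, whose brightest probe had -0.45 (limma adjusted p = 0.00162) and 0.08 with the other scaling.

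Regulators of smooth muscle transcription had RefSeq-named probes for 7 of 17 genes, 12 probes in all. The breed effect passed for 3 higher and 2 lower, the altitude effect for 1 higher and 5 lower, and the interaction for 4 positive and 2 negative. Over all probes with a RefSeq accession 28.5%, 35.3% and 27.7% passed in the same order. MYOCD, the coactivator that drives these contractile genes through serum response factor, was lower in Tibetan pigs, with 9.14 ± 0.02 in DL and 9.11 ± 0.01 in DH against 8.62 ± 0.04 in TL and 8.34 ± 0.04 in TH. The breed effect was -0.65 (limma adjusted p = 1.4e-05), and -0.43 with 75th percentile scaling. GATA6, which maintains the differentiated state, was also lower in Tibetan pigs, by -0.56 (limma adjusted p = 6.87e-05). KLF4, a repressor of the contractile genes, was lower at high altitude, by -0.63 (limma adjusted p = 3.69e-05). The brightest probes of KLF5 and TEAD1 were highest in TL, at 12.48 and 11.31, and that of MEF2C was lowest there at 9.13, with interactions of -2.56, -1.56 and 2.13. The other KLF5 probe passed with an interaction of 0.99, so that KLF5 had no single direction. FHL1, the brightest regulator, had a breed effect of -0.14 (limma adjusted p = 0.0129), or -0.42 with 75th percentile scaling. The non-muscle tropomyosins TPM3 and TPM4 (4 probes, 2 of 13 listed cytoskeletal relatives) had deposited group means of 14.87 to 14.98 and 16.57 to 16.85. With 75th percentile scaling TH minus TL turned from -0.05 to 0.67 for TPM3 and from -0.13 to 0.52 for TPM4, and the altitude effect of TPM4 from -0.15 (limma adjusted p = 6.85e-04) to 0.27.

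DES, TPM1 and TPM2 are also made by striated muscle, so genes of striated muscle were read for the same contrasts. Of 26 skeletal muscle genes 15 had a RefSeq-named probe (20 probes), and 6 of the 15 were not well above background on all arrays in their brightest probe. The altitude effect passed for 9 higher and 1 lower, with a median of 0.72. The breed effect passed for 3 higher and 3 lower, with a median of 0.11, and the interaction for 4 positive and 1 negative. Over all probes with a RefSeq accession 35.3% passed for altitude, 28.5% for breed and 27.7% for the interaction. The medians over those probes were 0.16 for altitude and -0.12 for breed. Summed over the 15 genes on the linear scale of the deposited values, the level was 11943 to 11983 in TH, 7705 to 7825 in TL, 14098 to 14558 in DH, and 9595 to 9691 in DL. CKM, muscle creatine kinase, had an altitude effect of 0.79 (limma adjusted p = 9.89e-06), and fast myosin MYH2 one of 1.00 (limma adjusted p = 4.62e-06), both in the direction of TPM1. Their interactions were -0.47 and -0.55, opposite in sign to those of TPM1 that passed. Neither passed itself (limma adjusted p = 6.39e-04 and 2.14e-04). The 4 positive interaction calls of the list, MYL1, MYOZ1, TNNC2 and TNNT1, had the sign of the TPM1 calls. The 1 negative call was CA3. The troponins TNNI2 and TNNT1 were lower in Tibetan pigs, by -1.37 and -1.28 (limma adjusted p = 3.85e-06 and 1.64e-06), in the direction of DES, and MYOZ1 by -0.72. In the direction opposite to DES, ACTA1, CA3 and MYL1 passed as higher in Tibetan pigs. The part of striated muscle RNA in the DES and TPM1 results was not tested.

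Of 16 heart muscle genes 5 had a probe (9 probes). The altitude effect passed for 6 lower, the breed effect for 4 higher and 1 lower, and the interaction for 5 negative, of TNNI3 and NPPB. Of all probes with a RefSeq accession, 35.3%, 28.5% and 27.7% passed in that order. The summed level was 17390 to 17593 in TL against 3214 to 4616 on the other arrays. TNNI3, cardiac troponin I, was highest in TL at 14.03 ± 0.01, against 11.45 to 11.66 elsewhere, and carried most of that sum. NPPB ran otherwise, with 9.45 in DH and 9.17 in DL against 6.45 in TL and 3.26 in TH. MYL2 and CSRP3 were well above background on 2 and 1 of the arrays. TPM2 A_72_P031791 was highest in TL with the deposited values only, its TL mean being the lowest with 75th percentile scaling, and the part of heart muscle RNA in its values was not tested.

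Vessel and airway neighbours of smooth muscle differed too. RGS5, the pericyte marker and the 1 gene of 9 listed with a probe, was highest in TH at 12.92 ± 0.04 and next in DH at 10.28 ± 0.01, with 8.51 ± 0.03 in TL and 8.45 ± 0.15 in DL. Its altitude effect of 3.13 (limma adjusted p = 3.1e-06), also 3.13 with the other scaling, had the direction of TPM1 and TAGLN and was larger than that of every member. The endothelial CDH5 was lower in Tibetan pigs by -0.36 (limma adjusted p = 9.03e-05), or -0.70 with the other scaling, 1 of 3 lower calls among 6 endothelial probes of 4 genes. Over all tested probes the breed effect passed as lower for 14.6% and as higher for 12.8%. In the matrix list, 2 of 12 genes had a probe, and DCN was higher in Tibetan pigs by 0.79 (limma adjusted p = 5.56e-06), or 0.49 with the other scaling. Of the 4 matrix probes 3 passed as higher, all of DCN. FBN1 ran the other way, by -0.17 (limma adjusted p = 7.63e-04, not past the threshold), or -0.26 with the other scaling. Of 11 airway cartilage genes 3 had a probe, and ACAN passed with a breed effect of 2.40. All 6 secretory airway probes, of 4 genes, were higher in Tibetan pigs, BPIFA1 by 5.35. No ciliated airway gene had a RefSeq-named probe, and of 4 alveolar type II probes SFTPD passed as lower in Tibetan pigs. SFTPC had a breed effect of -0.25, or -0.51 with the other scaling. The part of airway, matrix and vessel content of each lung piece in the member differences was not tested.

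**Figure D5:**
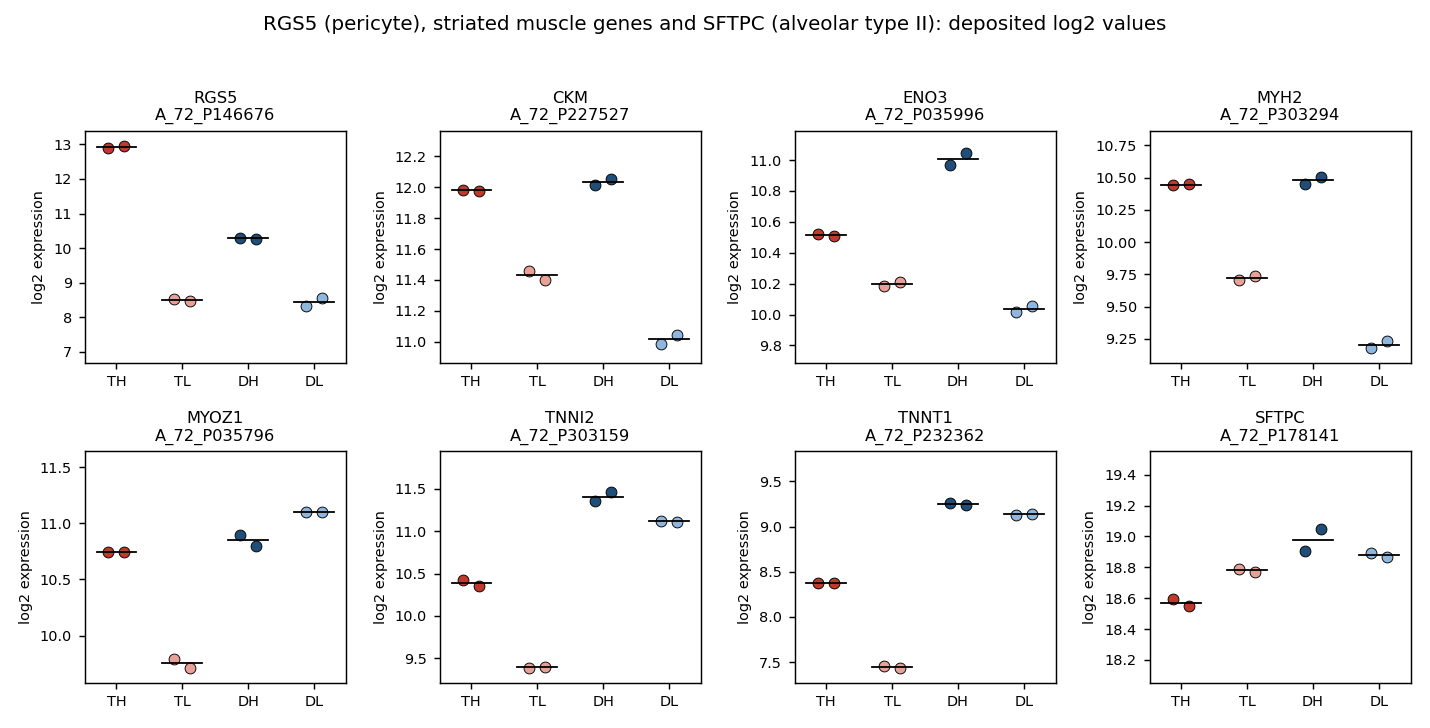
Deposited log2 expression (y axis) of RGS5, 6 skeletal muscle genes and SFTPC in TH, TL, DH and DL (x axis); points are single arrays and lines means of 2 arrays. RGS5, CKM, ENO3 and MYH2 were higher in both high altitude groups, TNNI2 and TNNT1 were lower in Tibetan pigs, and the group means of SFTPC were between 18.57 and 18.97.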

How the data were processed

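Lung RNA of 8 pigs was hybridized individually to 1-color Agilent arrays, 2 per group, with groups taken from the labels. Spot intensity was read by the authors with Feature Extraction (10.7.3.1 per the file headers and the methods, 9.1 per the labels) who deposited processed and median signal intensity with local background for each spot. A second deposited table holds log2 values, which the methods describe as RMA-normalized. Its columns share 1 distribution and follow the processed signals in rank (the lowest Spearman's rho was 0.99999), and its exact steps are unknown.

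These log2 values were fitted in limma 3.58.1 (R 4.3.3) with group means and contrasts for breed, altitude and interaction, for 34406 of 43603 probes, those flagged well above background on 1 array or more. Variances were moderated, with 4 residual degrees of freedom, and intervals are 95%. Summaries and figures used Python 3.11.15, numpy 2.4.6, pandas 2.3.3 and matplotlib 3.10.9. Steps were checked on simulated data.

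Symbols came from RefSeq accessions (2683 of 3250 probes matched 1 symbol) and from the study's tables. Counts of calls, other gene lists included, use RefSeq-named probes. All members are named, and from other lists the genes with the highest level, at most 6 per list, and those past the threshold where a list had 5 or fewer calls. MYOCD, MYLK, PRKG1, the lesser PPP1CB probe and the second KLF5 probe were chosen after their values were seen. A gene's brightest probe stands for it. The members and lists were chosen with earlier results of these data known. Sequences and genome positions of probes were not used here. No column of the tables was left out as unmapped. The number of arrays limits the precision.

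Alternatives were raw median signals with normal-exponential background correction (offset 0) and quantile normalization, processed signals scaled to the 75th percentile, local background with an offset of 50, a filter requiring all 8 arrays, no filter, the two-way model without moderation, an FDR of 0.05, a block for replicate number or for slide, and fits without each array in turn. Leaving out both TL arrays, and correlations with 75th percentile scaling, were added after seeing the data.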

Additional observations from a re-analysis of the deposited data

Results flagged for a closer look

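Each result here was picked because the altitude difference was not the same in Tibetan and Duroc pigs. For TPM1 the difference was tested by limma as an interaction over all probes, with 1.58 for A_72_P248722 and 0.84 for A_72_P077561. Both compare TH and DL, unmoved and on 1 slide, with TL and DH, moved and on the other. Move, slide and interaction cannot be told apart.

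In 5 probes named by the result tables, TH minus TL and DH minus DL had opposite signs for every pair of arrays, and the difference was not tested. TH minus TL less DH minus DL was -3.73, -4.42 and -3.77 for CALD1 A_72_P209157, A_72_P296229 and A_72_P423229, 1.34 for CALD1 A_72_P426119, and -1.27 for TPM2 A_72_P344093. These 5 probes had been named through tables ranked on the same arrays.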

How the results depend on the processing

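Of the 10 RefSeq-named member probes, 1 passed for breed, 2 for altitude and 2 for the interaction, against 27.4%, 26.3% and 28.4% of all probes. The share of all probes moved with each setting too. Scaling to the 75th percentile gave 3, 4 and 3 (all probes 33.2%, 30.4% and 32.4%), the filter requiring all 8 arrays 2, 3 and 2 (48.5%, 48.9% and 49.1%), and an FDR of 0.05 gave 4, 9 and 8 (71.6%, 70.8% and 73.7%). Raw median signals gave 1, 0 and 0 (19.5%, 17.4% and 21.1%), local background 1, 1 and 2 (28.8%, 28.8% and 29.0%), and no filter 1, 0 and 2 (18.9%, 18.1% and 19.8%). The model without moderation gave 0, 0 and 0 in limma (16.4%, 15.3% and 16.5%), with 5, 9 and 8 at an unadjusted p under 0.05. Fits without 1 array leave a group with 1 array, and calls were lost in them among the members and over all tested probes. The replicate block gave 0, 0 and 0 (8.39% of all probes for altitude and 11.9% for the interaction), with 4, 9 and 8 at an unadjusted p under 0.05. Replicate numbers did not pair the arrays, since deviations of same-numbered arrays had r between -0.04 and 0.09 over 6 pairs of groups. With this block the median breed, altitude and interaction effects of the 10 probes had to be the same as in the main fit, because each group held both replicate numbers. A slide block takes the place of the interaction, which cannot be fitted beside it. Breed and altitude therefore had to stay at 1 and 2, which says nothing on an influence of the slide. The cause of these changes was not tested.

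Signs changed mainly with 75th percentile scaling. The breed effect became -0.31 for CNN1, and -0.0771, -0.0402 and 0.139 for TPM1 A_72_P077561, A_72_P108241 and A_72_P248722. The altitude effect became 0.30 for CNN1, 0.07 for TPM2 A_72_P031791, and 0.37 and 0.24 for DES A_72_P177466 and A_72_P209552. The interaction became 0.54 for CNN1, 0.27 for TPM1 A_72_P179531, 0.0611 for TPM2 A_72_P031791 and -0.0156 for DES A_72_P350098. TH minus TL became 0.57 for CNN1, 0.10 for TPM2 A_72_P031791, and 0.56 and -0.19 for DES A_72_P209552 and A_72_P350098. DH minus DL became 0.0281 for CNN1 and 0.0395 for TPM2 A_72_P031791, and TL minus DL -0.58 and -0.41.

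With raw median signals and with local background, near-zero differences turned. DES A_72_P177466 TH minus TL became -0.0115 and -0.0114, CNN1 A_72_P035636 TH minus DH 0.0572 and 0.0567, and TPM1 A_72_P179531 TL minus DL 0.0047 and 0.0038. Without 1 array, these differences ran from -0.0226 to 0.0286, from -0.0291 to 0.0265 and from -0.0446 to 0.0077 in the same order. In all, single-probe values with a test kept their sign and side of the threshold in 965 alternatives, lost the call in 98, gained it in 66 and turned in 31.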
